A study of Mus musculus with 5 samples.

Results

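Between embryonic days E8.5 and E10.5 of the mouse the foregut gives rise to the liver and to the ventral and dorsal pancreas, and the genes described here are those that stood apart between the stages in all of these organ buds. Of 12375 loci with a gene name, 4455 were taken because the lowest of the 3 E10.5 libraries lay above both E8.5 libraries, or the highest lay below both, on the log2(FPKM + 1) scale (FPKM, fragments mapped to a transcript divided by its length in kilobases and by every 1000000 fragments mapped in the library). Of these, 2548 were higher and 1907 were lower at E10.5, which is 20.6% and 15.4% of all named loci. That rule used the values themselves, so these counts describe the libraries and are not a test.

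All 5 libraries came from C57BL/6J mouse embryos and held poly(A) RNA sequenced from both ends on an Illumina HiSeq. The E8.5 tissues were the foregut and the medial foregut, by its name a portion of the former, and the E10.5 tissues were the buds of liver, ventral pancreas and dorsal pancreas. There was 1 library per tissue, no transgene or treatment is stated, and the isolation of the tissue and any pooling of embryos are not stated in the sources used here. A stage is therefore represented by different tissues and not by replicates of a tissue, and stage and tissue cannot be told apart. In each tissue, fewer cells of a type and less RNA per cell cannot be told apart either.

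The foregut is the front portion of the endodermal gut tube, and at E8.5 its ventral wall lies beside the beating heart tube, with the neural tube on its dorsal side. Signals from the neighbouring cardiac mesoderm, from the notochord and from vessels then pattern this endoderm into organ buds, in which plasma protein genes, digestive genes and hormone genes are switched on. Genes that guide gastrulation, left-right asymmetry and pluripotency are shut down in the embryo over the same period.

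Summed FPKM ran from 437581 in dorsal pancreas to 506529 in medial foregut, and depth in reads is unknown. The endoderm factor Foxa2 was present in all libraries, at 12.4 and 18.2 FPKM at E8.5 and at 24.0 to 45.7 in the buds. Alb, encoding serum albumin, stood at 1051 FPKM in liver, and Pdx1, a factor that pancreatic progenitors depend on, at 39.2 and 40.9 in the ventral and dorsal pancreas. Markers of other cells were present too. The 17 cardiomyocyte genes found, of 22 listed, summed to 5613 and 9714 FPKM in the E8.5 libraries and to between 31.6 and 518 at E10.5. The 18 neural tube genes found, of 27, summed to 234 and 111 FPKM at E8.5 and to between 9.64 and 83.7 at E10.5. The 7 leukocyte genes found, of 19, summed to 2.75 and 3.28 FPKM at E8.5 and to 98.0 FPKM in the liver against 5.19 and 7.68 in the pancreatic buds. The part that these cells had in the stage differences was not tested.

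The distance between the nearest libraries of the stages, called the gap, was small for most of the 4455 loci. Its median size was 0.22 among the higher and 0.21 among the lower loci, and its size was under 0.1 for 698 and 549 of them. Just inside the rule lay Tle1, a co-repressor gene, with 23.3 FPKM in foregut and 23.3 in ventral pancreas, its nearest E10.5 library. Just outside lay Tsnax, at 44.97 in both medial foregut and dorsal pancreas. On the other side Sart3 was inside and Pnp outside by margins as narrow. Loci with a gap of at least 1, a doubling of FPKM + 1, and at least 5 FPKM in the highest library numbered 147 higher (1.19% of named loci) and 241 lower (1.95%).

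Of 11183 loci with a mean of at least 1 FPKM, limma with Benjamini-Hochberg adjustment over all of them called 10 rises (0.0894%) and 35 falls (0.313%) at an adjusted p under 0.05, all with non-overlapping groups. The spread in this fit is that between the tissues of a stage. At an unadjusted p under 0.05 there were 1622 loci, and the lowest adjusted p was 0.0242. An exact one-sided permutation test of a single gene, 3 libraries against 2, cannot give a p below 0.1. The calls changed with the libraries in the fit. Without ventral pancreas there were 0 rises and 0 falls (1182 loci at an unadjusted p under 0.05), and without liver there were 468 and 288. Both of these fits had 2 residual degrees of freedom against 3 with all libraries, so they differ in power as well. A fit without foregut or medial foregut leaves 1 library at E8.5.

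Values below are FPKM in foregut, medial foregut, liver, ventral pancreas and dorsal pancreas, in that order, unless a tissue is named. Mean differences are E10.5 minus E8.5 of log2(FPKM + 1), a scale on which changes of low genes come out too small, with the standard error from limma. Leaving out 1 library can only widen the non-overlap rule, for every list. Without foregut, medial foregut, liver, ventral pancreas or dorsal pancreas, 3350, 3270, 5097, 2937 or 3165 of 12375 named loci were higher. The lower loci then numbered 2580, 2657, 2803, 2485 or 2795.

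The rises joined a plasma protein, aldehyde metabolism, a sugar-responsive factor and a transcriptional co-repressor. Ambp (mm9, chromosome 4, 62804306 to 62816339), which encodes the precursor of the plasma protein alpha-1-microglobulin and of the protease inhibitor bikunin, stood at 3.61, 2.01, 898, 612 and 188. It rose by 6.98 ± 0.69, with a Benjamini-Hochberg adjusted p of 0.0463 in limma, and dorsal pancreas, the lowest bud, still lay 5.36 above foregut. Aldh1b1 (chromosome 4, 45811735 to 45817549), a mitochondrial aldehyde dehydrogenase of progenitor cells, stood at 0.504, 0.548, 22.0, 24.4 and 35.3. Its mean difference was 4.18 ± 0.26 (limma, Benjamini-Hochberg adjusted p = 0.0242), and here dorsal pancreas was the highest library. The order of the buds for Aldh1b1 was thus opposite to that for Ambp.

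Aes (chromosome 10, 81021930 to 81029110), a short Groucho-family co-repressor, stood at 28.4, 28.9, 339, 264 and 237. The E8.5 libraries were close to each other, the buds lay within 0.52 of each other, and the gene rose by 3.23 ± 0.19 (limma, Benjamini-Hochberg adjusted p = 0.0242). Mlxipl (chromosome 5, 135582738 to 135615614) encodes ChREBP, which turns on glycolytic and lipogenic genes when sugar is plentiful, and stood at 0.598, 0.756, 16.2, 13.4 and 10.6. It rose by 3.09 ± 0.25 (limma, Benjamini-Hochberg adjusted p = 0.0304). Aldh1b1 and Mlxipl were among the 10 loci (0.0808% of named loci) that were under 1 FPKM in both E8.5 libraries and at least 5 in every bud, together with Gulo, Gc, Gjb1, Onecut3, Serpina6, Shisa3, Ugt2b34 and Gm5424.

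Other called rises had smaller mean differences. Gdf11, a TGF-beta family ligand that restrains endocrine progenitors in the pancreas, stood at 7.60, 6.23, 22.9, 21.5 and 21.6, a rise of 1.55 ± 0.16 (limma, Benjamini-Hochberg adjusted p = 0.0463). Dap, a gene tied to cell death and autophagy, stood at 20.3, 22.7, 91.7, 87.4 and 73.4 and rose by 1.92 ± 0.15. Pde9a, a cyclic GMP phosphodiesterase, went from 1.53 and 2.11 to 12.8, 11.7 and 18.3. Ssbp4, a single-stranded DNA-binding adaptor of LIM-domain complexes, went from 9.44 and 12.46 to 49.1, 40.6 and 41.7, at a row whose interval another row shares. The called row Fen1,Gm98 joins the replication nuclease gene Fen1 with another gene and stood at 20.6, 22.1, 66.8, 61.8 and 61.1, so which of the genes rose cannot be told.

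**Figure D1:**
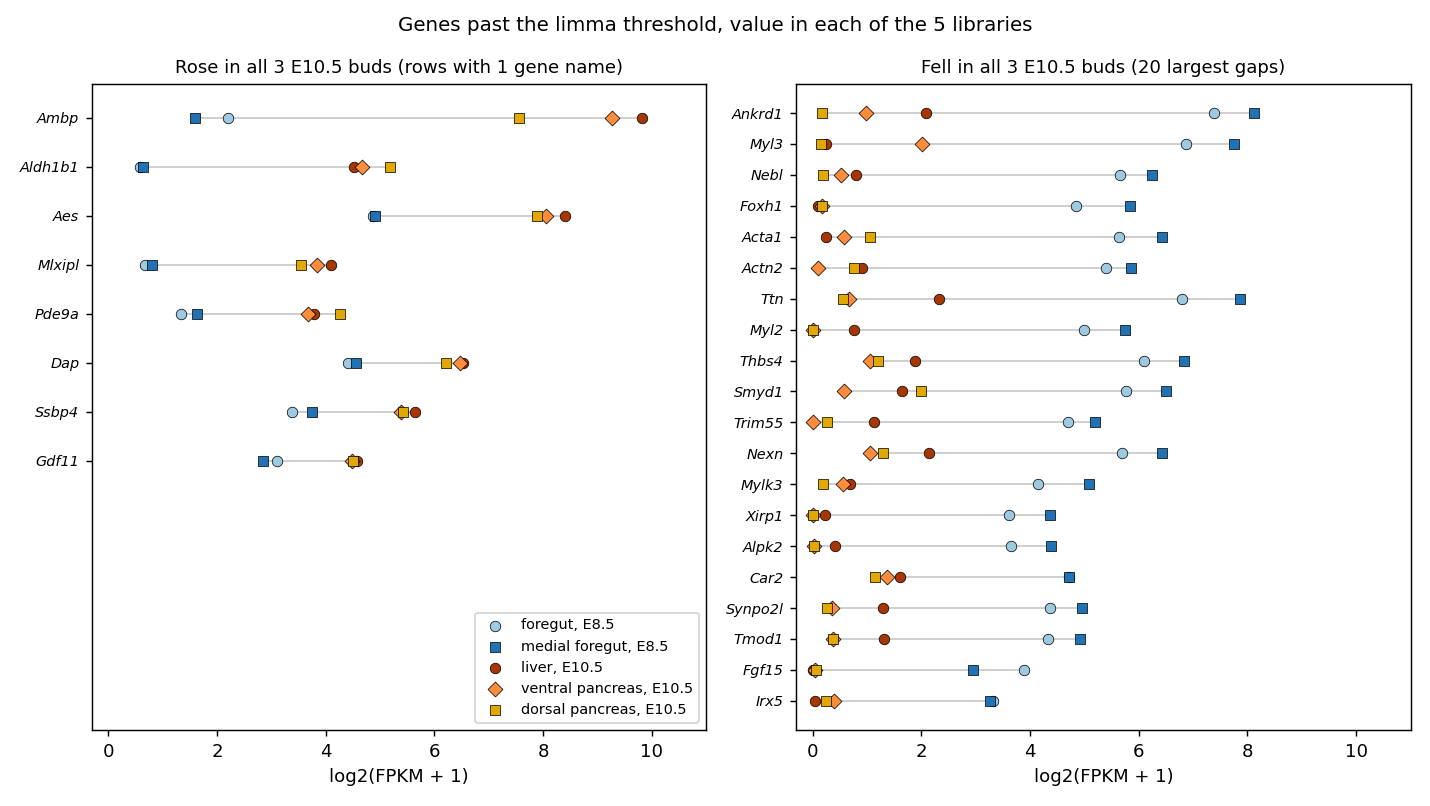
Level in each of the 5 libraries, as log2(FPKM + 1), of 8 called rises that carry 1 gene name (left) and of the 20 called falls with 1 gene name that have the largest gaps (right), 1 point per library. The blue E8.5 points and the red, orange and yellow E10.5 points do not overlap for any gene shown. The bud points nearly coincide for Gdf11. They do so as well for Foxh1 and Fgf15, whose bud values are under 1 FPKM, where this scale shrinks differences.

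Plasma proteins of the liver were the list with the largest differences on the higher side. Of 26 hepatic secreted genes found, 18 were higher in all buds and 0 were lower, 69.2% against 20.6% of all named loci, and the median difference was 3.12 against 0.05. The count was the same 18 under both rescalings and without medial foregut, liver or ventral pancreas, and it was 25 without dorsal pancreas and 22 without foregut. Only Ambp passed limma. Liver was far above the rest for some members: Trf, encoding transferrin, stood at 2.38, 1.73, 1244, 115 and 27.2. The carrier of glucocorticoids in blood, Serpina6, stood at 0.146, 0.0910, 603, 43.5 and 6.39. Dorsal pancreas was the lowest bud for both and yet lay above both E8.5 libraries, by a gap of 3.06 for Trf and 2.69 for Serpina6 (limma, Benjamini-Hochberg adjusted p = 0.20 and 0.249). Vtn, encoding vitronectin, had a narrower spread, at 18.5, 9.53, 351, 227 and 108. Gc, the vitamin D-binding protein, showed another order, at 0.512, 0.278, 6.197, 41.8 and 38.3, and was highest in the pancreatic buds. Alb itself stood at 0.226, 0.0231, 1051, 97.0 and 1.497.

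Some metabolic genes, named for the size of their gaps, were higher in all buds without passing limma. Gulo, which makes vitamin C in rodents, stood at 0.741, 0.620, 255, 60.1 and 25.4, with a gap of 3.93. Slc2a2, the glucose transporter of hepatocytes and beta cells, stood at 0.0538, 0.00791, 20.6, 39.3 and 4.41. The gap junction gene Gjb1 stood at 0.259, 0.0463, 44.4, 18.9 and 7.34.

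Among factors, Nr5a2, a nuclear receptor of liver and exocrine pancreas, stood at 1.65, 0.531, 22.7, 45.1 and 17.1, and Onecut3 at 0.195, 0.0948, 13.99, 24.1 and 6.31. Both were highest in ventral pancreas, and their limma adjusted p (Benjamini-Hochberg) was 0.0597 and 0.0677. Hnf4a, which drives hepatocyte genes, stood at 3.30, 2.30, 158, 31.3 and 13.0, and Prox1, at a row on the other strand than annotated, at 2.41, 1.65, 30.3, 9.66 and 11.5. Of 17 foregut endoderm factors found, 5 were higher (Foxa2, Foxa3, Onecut1, Prox1 and Hnf4a) and 4 were lower (Sox2, Gata4, Otx2 and Pax8), and 0 passed limma. Those shares were 29.4% and 23.5%, against 20.6% and 15.4% of named loci. Gata4, shared by endoderm and heart, stood at 46.6, 78.0, 19.7, 11.2 and 13.5. Of 16 pancreatic progenitor factors found, Onecut1 and Foxa2 were higher and Gata4 lower in all buds, and 13 overlapped. Both shares were under the 20.6% and 15.4% of named loci. Without liver 11 factors were higher and 1 lower, against 5097 and 2803 of 12375 named loci.

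**Figure D2:**
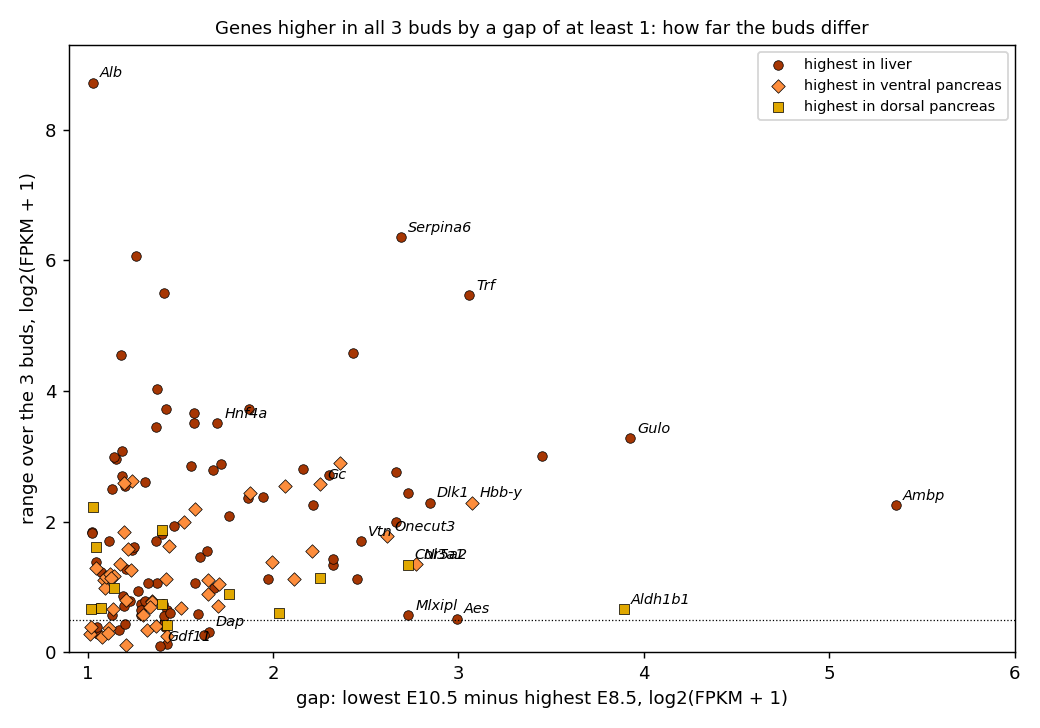
The 147 loci higher in all 3 buds by a gap of at least 1, with the gap between stages on the x axis and the range over the 3 buds on the y axis, both in log2(FPKM + 1), coloured by the bud with the highest value. Liver was highest for 87, ventral pancreas for 47 and dorsal pancreas for 13, and 21 loci lie at or under the dotted line, which marks a range of 0.5.

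The stretch before the start of these genes was searched for 6 motifs, and among the higher loci the HNF1 core GTTAAT (or ATTAAC on the other strand) was more frequent than in the background. HNF1 factors bind this core in many liver genes. It occurred within 250 bases before a start in 16 of 99 genes with a gap of at least 1 and a RefSeq window (16.2%), against 438 of 8254 named loci (5.31%) and 6.43% of all 32851 windows. It occurred in 15 of 161 lower genes with such a gap as well (9.32%). Of the 16, 9 also held a CAAT box (CCAAT), a common motif that occurred in 40.4% of the 99 higher genes and in 40.9% of named loci. A match describes the letters and is not evidence of binding. The lines below give the 150 bases before the start from RefSeq on GRCm38.p6, 5′ to 3′ on the gene's strand with the core in capitals, for the albumin gene, for the vitamin D-binding protein, highest in the pancreatic buds, and for Hnf4a, which holds the core in a tandem pair. The windows are chr5:90460720-90460869 (plus strand), chr5:89457899-89458048 (minus strand) and chr2:163547005-163547154 (plus strand).
Alb: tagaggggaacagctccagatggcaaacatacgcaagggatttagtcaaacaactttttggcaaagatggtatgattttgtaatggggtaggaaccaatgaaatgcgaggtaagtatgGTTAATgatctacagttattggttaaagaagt
Gc: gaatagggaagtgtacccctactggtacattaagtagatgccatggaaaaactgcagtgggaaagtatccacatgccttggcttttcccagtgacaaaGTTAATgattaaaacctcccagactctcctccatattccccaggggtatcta
Hnf4a: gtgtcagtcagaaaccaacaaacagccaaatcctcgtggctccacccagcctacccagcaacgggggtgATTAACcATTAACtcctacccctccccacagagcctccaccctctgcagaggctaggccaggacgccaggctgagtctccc

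A set of higher loci differed from the liver genes in being level within each stage. With the E8.5 libraries under 0.5 apart and the buds at most 0.5 apart, 21 loci remained (0.17% of named loci), and 5 of these passed limma, among them Dap, Ssbp4, Gdf11 and the Fen1 row. Others were of mixed function. Igfals, the acid-labile subunit that carries insulin-like growth factors in blood, stood at 0.672, 0.620, 5.07, 4.12 and 3.45. Nfic, a nuclear factor I gene, stood at 0.827, 0.820, 5.35, 4.27 and 3.87, and Slc16a10, an aromatic amino acid transporter, at 2.37, 2.61, 7.33, 7.96 and 7.61. Deptor, an inhibitor of mTOR, stood at 1.78, 1.12, 6.92, 5.25 and 6.26. These 4 genes had limma adjusted p-values (Benjamini-Hochberg) from 0.0677 to 0.0759.

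Of 27 imprinted genes found, 4 were higher (14.8%), 2 were lower (7.41%) and 21 overlapped. Both shares were under the 20.6% and 15.4% of all named loci. Without dorsal pancreas 9 were higher and 7 lower, against 3165 and 2795 of 12375 named loci. Phlda2, a growth inhibitor of the placenta, was lower at 47.2, 113, 5.56, 9.25 and 0.726, and Snrpn at 45.2, 54.1, 17.9, 21.5 and 24.8. Dlk1, an imprinted Notch-family ligand of hepatoblasts, stood at 57.4, 66.7, 2377, 1718 and 485, with a gap of 2.84 and a limma adjusted p (Benjamini-Hochberg) of 0.0747. The imprinted row Meg3,Mir337,Mir493 stood at 110, 117, 377, 585 and 255. Igf2 and H19, imprinted together on chromosome 7, overlapped between stages: Igf2 stood at 448, 759, 1154, 876 and 652, and H19 at 1499, 2492, 3808, 2760 and 2068. For both, dorsal pancreas lay below medial foregut. Cdkn1c overlapped as well, at 350, 631, 402, 341 and 158, as did Xist, the X-inactivation RNA, at 58.4, 49.4, 6.96, 119 and 64.0. The part of embryo sex in the Xist values was not tested. Ccnd1, encoding cyclin D1, was higher in every bud at 29.6, 22.0, 110, 98.1 and 73.6.

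Fibrillar collagens were among the higher genes while most matrix genes that did not overlap were lower. Col3a1 stood at 2.18, 2.78, 34.3, 24.0 and 62.3 (limma, Benjamini-Hochberg adjusted p = 0.0557) and Col1a1 at 2.71, 6.32, 29.4, 20.8 and 15.7. Of 36 matrix genes found, 7 were higher (19.4%, near the 20.6% of named loci) and 12 lower (33.3% against 15.4%). Without dorsal pancreas 13 were higher, and the higher named loci went from 2548 to 3165 of 12375. The proteoglycan gene Vcan stood at 84.7, 116, 9.78, 31.4 and 24.8, and Has2, a hyaluronan synthase that is not on the list, fell from 15.9 and 32.3 to 1.40, 0.962 and 0.691 (limma, Benjamini-Hochberg adjusted p = 0.0463).

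Of the metabolic lists, cholesterol synthesis and lysosome genes were on the higher side with small gaps. All 10 non-overlapping cholesterol genes of 18 were higher, 55.6% against 20.6% of named loci, with a median difference of 0.53. Medial foregut was the lower E8.5 library for 16 of the 18. Among the 10 were Sqle, Dhcr7, Fdft1 and Fdps, enzymes of the pathway, and Srebf2, its transcriptional regulator. Median-ratio rescaling gave 7 higher genes, and leaving out foregut gave 16. Of 22 lysosome genes 11 were higher (50% against 20.6% of named loci) and 2 lower (9.09% against 15.4%). Psap, encoding prosaposin, stood at 67.1, 72.7, 169, 187 and 143, and Gaa, acid alpha-glucosidase, at 12.4, 11.9, 22.9, 24.4 and 30.4, both at rows whose interval another row shares. No gene of either list passed limma.

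Of 7 erythroid genes found, 3 were higher in all buds (42.9% against 20.6% of named loci), 1 was lower (14.3% against 15.4%) and 3 overlapped. Without liver or medial foregut 5 were higher. Hbb-y, an embryonic beta-globin, stood at 1.73, 1.495, 22.0, 111 and 24.4, with ventral pancreas the highest, and the 7 genes, of 20 listed, summed to 8.69 and 11.04 FPKM at E8.5 and to 28.7, 147 and 32.0 in the buds. Hemoglobin genes other than Hbb-y are not analysed here. Of 7 leukocyte genes, 5 were higher in all buds (71.4% against 20.6% of named loci). Only 1 of them, C1qb, was among the loci with a gap of at least 1. Values in the pancreatic buds were low: C1qc, listed at 0 in both E8.5 libraries, stood at 14.5, 0.278 and 0.595 in the buds. Laptm5 stood at 0.971, 0.879, 9.67, 1.42 and 1.45. The macrophage complement gene C1qb was listed at 0 in both E8.5 libraries and stood at 41.3, 1.59 and 2.65 in the buds. Of 6 antigen presentation genes, 4 were higher in all buds (66.7% against 20.6% of named loci), among them Psme1, Irf1 and Psmb8. B2m overlapped, at 34.1, 30.3, 211, 105 and 32.3. The part of blood cells in these values was not tested.

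The falls were led by genes of the beating heart. Ankrd1, a cardiac ankyrin repeat protein (chromosome 19, 36186452 to 36194573), stood at 166, 277, 3.27, 0.984 and 0.125 and fell by 6.67 ± 0.60 on the log2 scale (limma, Benjamini-Hochberg adjusted p = 0.0372). Nebl, the Z-disc protein nebulette (chromosome 2, 17451510 to 17653148), stood at 49.3, 75.2, 0.731, 0.445 and 0.140 and fell by 5.45 ± 0.30, with an adjusted p of 0.0242 in limma (Benjamini-Hochberg). Acta1, encoding skeletal alpha-actin, stood at 48.9, 85.6, 0.191, 0.494 and 1.08, and Actn2, encoding sarcomeric alpha-actinin, at 41.2, 57.0, 0.879, 0.0781 and 0.699. Both fell with the same adjusted p as Nebl.

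All 17 cardiomyocyte genes found were lower in every bud, against 15.4% of named loci, with a median difference of -5.12, and the 17 stayed lower under both rescalings. Only Myl3, Ttn, Myl2 and Smyd1 of these passed limma as falls. Myl2, the ventricular myosin light chain, stood at 30.9, 52.4 and 0.692 in foregut, medial foregut and liver and was listed at 0 in both pancreatic buds. Myh7, the heavy chain with the widest gap of all lower loci (-5.51), stood at 486, 647, 9.68, 7.75 and 0.406. Its adjusted p in limma (Benjamini-Hochberg) was 0.0612, and the buds lay 2.93 apart. Liver kept more of some sarcomere genes than the pancreatic buds: Actc1, cardiac alpha-actin, stood at 1487, 2297, 77.9, 0.217 and 0.752, and Myl7, the atrial light chain, at 1049, 1959, 93.9, 5.56 and 8.55. Ttn was measured at a row that covers 3.64% of the annotated span.

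The called falls outside the marker list included genes known from heart and muscle, picked here because they were called: the muscle kinase Mylk3, the filament proteins Nexn, Synpo2l, Myo18b and Xirp1, the actin regulators Tmod1 and Fhod3, the ubiquitin ligase Trim55, the potassium channel Kcnj5, the calcium-store gene Casq1, the matrix protein Thbs4, the ventricular factor Irx4 and the homeodomain protein Hopx. Hopx stood at 17.8, 27.7, 1.09, 1.62 and 0.867, and Thbs4 at 67.3, 113, 2.68, 1.07 and 1.31. The rows of Myo18b and Irx4 cover 8.27% and 6.73% of the annotated spans. Mesenchyme and smooth muscle markers were lower for 8 of 19 found (42.1% against 15.4% of named loci) and higher for 1, Postn. Acta2, smooth muscle actin, stood at 635, 1042, 133, 2.78 and 0.923 at a row whose interval another row shares, and that list summed to 991 and 1535 FPKM at E8.5 and to between 168 and 408 in the buds.

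Where the lower genes stood at E8.5 divided them. Of the 241 with a gap of at least 1, medial foregut exceeded foregut by at least 0.5 for 139, foregut exceeded medial foregut for 27, and 75 lay within 0.5, whereas such differences held for 4.99% and 3.75% of all named loci. All 17 cardiomyocyte genes were higher in medial foregut, with a median excess of 0.86. Neural tube genes leaned the other way, as 17 of 18 were higher in foregut, with a median of 0.64 in that direction. For the 147 higher genes, 132 were within 0.5 between the E8.5 libraries, 4 were higher in medial foregut by at least 0.5 and 11 in foregut. Most named loci also lay within 0.5, as the shares above show.

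**Figure D3:**
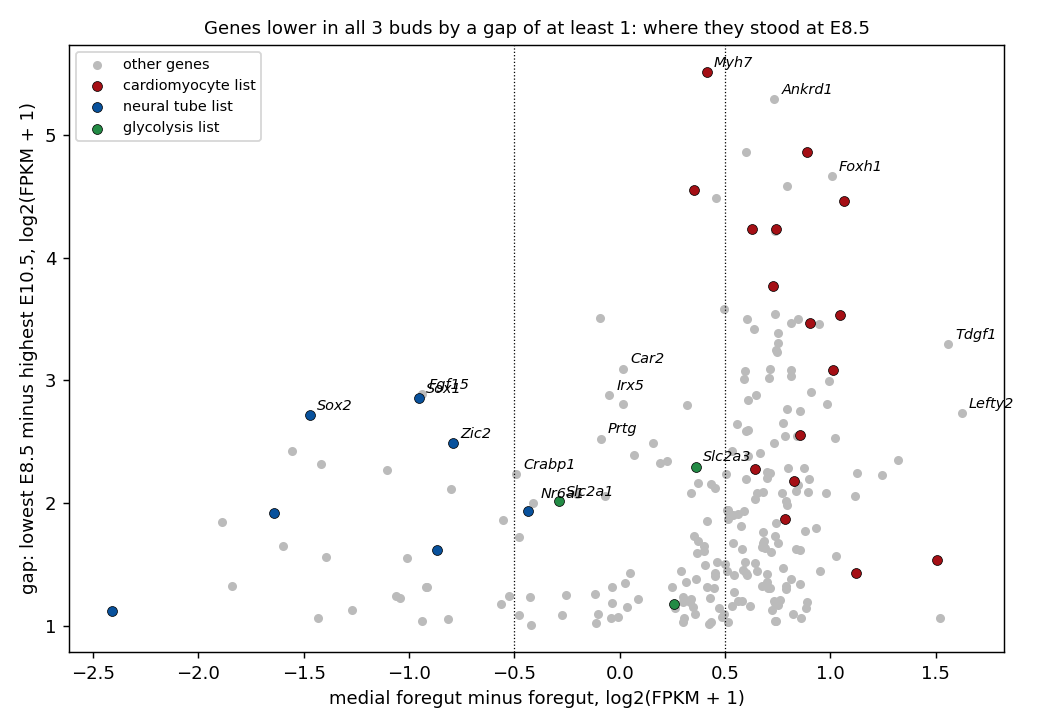
The 241 loci lower in all 3 buds by a gap of at least 1, with medial foregut minus foregut at E8.5 on the x axis and the gap to the buds on the y axis, both in log2(FPKM + 1). Points of the cardiomyocyte list lie right of 0 and points of the neural tube list left of 0, and the dotted lines mark a difference of 0.5 between the E8.5 libraries, beyond which 139 and 27 loci lie.

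The CArG box, the site of serum response factor, a regulator of muscle genes, was found before the start of some genes on the medial foregut side. It occurred within 250 bases in 12 of 95 genes with a RefSeq window whose medial foregut value exceeded foregut by at least 0.5 (12.6%), in 1 of 49 genes within 0.5 (2.04%) and in 0 of 17 on the foregut side. The share was 1.53% of named loci and 1.47% of all windows, and 0 of the lower genes with a CArG box also held a MEF2 site while 3 held a TATA box (TATAAA). The MEF2 site, bound by another muscle regulator, occurred in 7 of 161 lower genes with a gap of at least 1 (4.35%), in 0 of 99 higher genes and in 0.545% of named loci. The TATA box occurred in 16.1% of the same lower genes, in 16.2% of the higher genes and in 8.01% of named loci. The CArG box is its own reverse complement in form, and both strands were read. The 150 bases before the start are shown from RefSeq on GRCm38.p6 with the box in capitals for the skeletal actin Acta1 (chr8:123894776-123894925, minus strand), the homeodomain gene Hopx (chr5:77115124-77115273, minus strand), the cardiac actin Actc1 (chr2:114052876-114053025, minus strand) and the light chain Myl3 (chr9:110763528-110763677, plus strand).
Acta1: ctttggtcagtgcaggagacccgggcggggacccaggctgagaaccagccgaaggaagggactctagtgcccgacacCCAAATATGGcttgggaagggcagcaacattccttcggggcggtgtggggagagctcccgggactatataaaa
Hopx: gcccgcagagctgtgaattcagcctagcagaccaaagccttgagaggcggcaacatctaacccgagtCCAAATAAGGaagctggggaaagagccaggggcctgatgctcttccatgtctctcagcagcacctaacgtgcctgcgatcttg
Actc1: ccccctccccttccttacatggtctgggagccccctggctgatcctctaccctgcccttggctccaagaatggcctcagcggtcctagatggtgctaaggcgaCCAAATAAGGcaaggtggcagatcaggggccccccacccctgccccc
Myl3: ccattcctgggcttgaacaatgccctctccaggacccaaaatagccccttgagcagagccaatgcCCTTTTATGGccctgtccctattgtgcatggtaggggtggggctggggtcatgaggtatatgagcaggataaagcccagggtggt

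Among the lower loci were 4 genes of Nodal signalling, the TGF-beta branch that sets left-right asymmetry, which were picked after the values were seen. Foxh1, the DNA-binding partner of Smad proteins downstream of Nodal, stood at 27.7, 56.6, 0.0731, 0.132 and 0.125 and fell by 5.19 ± 0.35 (limma, Benjamini-Hochberg adjusted p = 0.0242). Its row (chromosome 15, 76473887 to 76500731) is far longer than the annotated gene and shares its interval with another row, so reads of neighbours may be in it. Tdgf1, the Nodal co-receptor Cripto, stood at 9.22, 29.1, 0.0401 and 0.0424 and was listed at 0 in dorsal pancreas.

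Cfc1, the related co-receptor Cryptic, stood at 3.83, 9.55, 0.0194, 0.0122 and 0.00708, and Lefty2, a secreted Nodal antagonist, at 5.90, 20.3 and 0.0374 in the first 3 libraries, listed at 0 in ventral pancreas and at 0.00407 in dorsal pancreas. Medial foregut was higher than foregut for all 4 of these genes. Of the 4, only Foxh1 passed limma, with Benjamini-Hochberg adjusted p from 0.0557 to 0.0649 for the others. Foxh1, Lefty2 and Tdgf1 belong to the 21 loci (0.17% of named loci) at 5 FPKM or more in both E8.5 libraries and under 1 in every bud. The other 18 include the muscle genes Actn2, Myl2, Mylk3, Nebl, Xirp1, Myo18b, Alpk2 and Cox6a2, the pharyngeal factor Tbx1, and Fgf15, Sox1, Irx4 and Irx5.

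Pluripotency and early-embryo factors were lower for 8 of 14 found (57.1% against 15.4% of named loci) and higher for 0. Pou5f1, encoding Oct4, stood at 5.39, 8.55, 0.0465, 1.77 and 0.0195, so ventral pancreas kept the highest level among the buds. Dnmt3b, the de novo DNA methyltransferase of early embryos, stood at 31.4, 41.8, 14.2, 15.6 and 13.3, and the related Dnmt3a was higher in every bud, at 29.7, 27.6, 64.9, 43.5 and 52.0. Sox2, at a row with a shared interval, stood at 38.9, 13.4, 0.161, 1.19 and 0.464. Sox2 is on the neural tube list as well. No gene of the pluripotency list passed limma.

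Neural tube genes were lower for 12 of 18 found (66.7% against 15.4% of named loci) and higher for 1, Dcx. Sox1, a neural plate factor (chromosome 8, 12395432 to 12401040), stood at 14.6 and 7.04 at E8.5 and at 0.113 and 0.0754 in the pancreatic buds, with 0 listed in liver. It fell by 3.40 ± 0.36 (limma, Benjamini-Hochberg adjusted p = 0.0463), and so did Fgf15, a ligand of the early neural tube, from 13.9 and 6.75 to 0.00308, 0.0293 and 0.0465. Zic2 stood at 19.03, 10.6, 0, 1.06 and 0.0128 (listed at 0 in liver), Pax3, of dorsal neural tube and somites, at 11.8, 3.11, 0.0879, 0.0405 and 0.0125, and Olig2, of motor neuron progenitors, at 11.3 and 1.31 with 0.0596 in ventral pancreas and 0 listed in the other buds. Foregut was the highest library for each of these 5 genes.

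Genes for the synthesis, binding and degradation of retinoic acid were among the lower genes. This vitamin A derivative is made from retinol in steps, carried in the cell by binding proteins and degraded by CYP26 enzymes. Of 17 genes found, 7 were lower (41.2% against 15.4% of named loci) and 2 higher (11.8% against 20.6%) in all buds. Aldh1a2, which makes retinoic acid, stood at 35.4, 15.96, 2.51, 0.353 and 1.16, and the binding proteins Crabp1 and Crabp2 stood at 457, 325, 2.18, 68.1 and 19.3 and at 360, 134, 7.90, 26.1 and 8.52. The row that joins the degrading enzymes Cyp26a1 and Cyp26c1 stood at 13.0, 12.1, 0.156, 0.119 and 0.122 and fell by 3.58 ± 0.23 (limma, Benjamini-Hochberg adjusted p = 0.0242). How its reads divide between both genes is unknown. Rdh11, a retinal reductase, was higher in all buds, at 9.36, 9.12, 24.4, 18.1 and 12.1. Leaving out foregut, liver or dorsal pancreas gave 4 higher genes of 17, against 3350, 5097 or 3165 of 12375 named loci.

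Hedgehog pathway genes were lower for 8 of 14 (57.1% against 15.4% of named loci) and higher for 0, with a median difference of -1.06. Shh, the ligand of foregut endoderm and notochord, stood at 10.2, 7.35, 0.00678, 3.14 and 0.417. Ptch1, receptor and target of the pathway, stood at 75.4, 52.1, 15.2, 19.9 and 21.4 (limma, Benjamini-Hochberg adjusted p = 0.0634). Gli1, a target and effector, was only just lower in dorsal pancreas, at 22.8, 15.1, 0.996, 1.36 and 13.9 at a row with a shared interval, and Gli2 and Gli3 overlapped because dorsal pancreas lay above medial foregut. Rescaling to equal totals gave 6 lower genes. The floor plate and notochord also make Shh. Of 8 notochord and somite markers found, 5 were lower, Shh itself among them (62.5% against 15.4% of named loci). The 8 summed to 66.5 and 37.1 FPKM at E8.5 and to between 10.4 and 21.0 in the buds. The part of these tissues in the hedgehog values was not tested.

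Higher members of other signalling lists were more numerous without liver, as were those of all named loci. Of 44 Wnt genes 19 were lower and 5 higher (43.2% and 11.4%, against 15.4% and 20.6% of named loci). Of 31 BMP and TGF-beta genes the counts were 11 and 5 (35.5% and 16.1%). Of 24 FGF genes they were 8 and 5 (33.3% and 20.8%), and of 20 Notch genes 5 and 3 (25% and 15%). Without liver, 22 Wnt genes were lower and 9 higher, 13 and 8 of the BMP and TGF-beta genes, 8 and 9 of the FGF genes, and 5 and 10 of the Notch genes. Of 12375 named loci, 2803 were then lower and 5097 higher. Without medial foregut, 8 FGF genes were lower and 8 higher, and without dorsal pancreas 13 BMP and TGF-beta genes were lower and 8 higher. Among Wnt ligands, Wnt2 stood at 15.99, 26.7, 2.60, 0.0789 and 0.00611 and Wnt5a, a ligand of non-canonical signalling, at 7.62, 12.8, 0.582, 1.53 and 1.20. The receptor genes Lrp5, Fzd5 and Fzd6 were higher in all buds, and Fzd5 reached 30.2 in dorsal pancreas from 1.96 and 2.67 at E8.5. Among BMP genes, Bmp2 stood at 14.7, 28.1, 2.67, 1.73 and 0.408, Bmp4 at 10.04, 20.8, 7.08, 7.76 and 3.57 and Bmp5 at 12.2, 23.3, 1.49, 0.499 and 1.71, all highest in medial foregut. The FGF receptor Fgfr4 was higher, at 14.9, 9.29, 32.3, 49.3 and 23.2, whereas Fgf8, an early signalling ligand, stood at 4.67, 13.2, 0.0387, 0.0745 and 0.115.

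A small set of falls was level within each stage, and it held called genes of several functions. There were 18 such loci (0.145% of named loci), 7 of them called: Car2, Irx5, Fhod3, Nr6a1, Palld, the Cyp26 row and 4933436C20Rik, which shares its interval with Irx5. Car2, carbonic anhydrase 2 (chromosome 3, 14886232 to 14900769), stood at 25.2, 25.4, 2.06, 1.57 and 1.22 and fell by 3.34 ± 0.23 (limma, Benjamini-Hochberg adjusted p = 0.0242). Nr6a1 (chromosome 2, 38578887 to 38782070), the germ cell nuclear factor that represses Oct4 after gastrulation, stood at 68.5, 51.3, 11.3, 12.1 and 11.9 and fell by 2.24 ± 0.17 (adjusted p = 0.0293 in the same fit). Prtg, protogenin, a receptor-like protein of the early embryo (chromosome 9, 72654244 to 72765273), fell by 2.78 ± 0.21 with values of 112, 105, 11.6, 16.6 and 17.4 (adjusted p = 0.0282), although its buds lay slightly over 0.5 apart. Rasl11b, a small GTPase gene, at 17.0, 16.5, 7.34, 7.03 and 6.67, and Pvrl1, encoding nectin-1, at 16.2, 20.2, 7.03, 7.18 and 7.22, were as level but did not pass limma.

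Nr6a1 and Prtg are on the list of Lin28 and let-7 target genes. Lin28 proteins block the maturation of let-7 microRNAs in early embryos, and let-7, whose level was not measured here, represses messages with matching sites. Of 14 listed genes found, 7 were lower (50% against 15.4% of named loci) and 1, Ccnd1, was higher (7.14% against 20.6%). Rescaling gave 6 and 1 or 4 and 2, and leaving out liver gave 7 and 4. Arid3b stood at 64.0, 105, 10.03, 20.2 and 23.2, and Lin28b was lower by a gap of -0.07, at 27.3, 19.1, 18.2, 5.84 and 16.6. Hmga2, a chromatin protein, went the other way in dorsal pancreas and overlapped, at 170, 215, 114, 215 and 370. Lin28a lies in the joined row Dhdds,Hmgn2,Lin28a, at 379, 417, 230, 266 and 239, and Igf2bp3, an RNA-binding protein gene, stood at 76.0, 75.0, 52.7, 61.6 and 74.7.

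The let-7 seed (bases 2 to 8, in capitals) pairs with CTACCTC in a message, and the first such site of the 3 lower genes in GENCODE M21 transcripts on GRCm38 is shown with 14 bases before and 1 after it. Nr6a1 holds 8 sites in its 3′ UTR, Prtg 2 and Arid3b 1. Sites of this kind were found in 31 of 221 lower genes with a gap of at least 1 and a UTR (14.03%), against 1307 of 10335 named loci (12.6%), so the share was near the background. The microRNA sequences are RefSeq's, and both members shown share the seed.
mmu-let-7a-5p: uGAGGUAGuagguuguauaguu
mmu-let-7g-5p: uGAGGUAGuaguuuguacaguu
Nr6a1: agactgtggagcagCTACCTCc
Prtg: cctctgctgaatagCTACCTCa
Arid3b: atttcaataaagctCTACCTCt

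Glycolysis genes were lower together, without a called gene. Of 18 found, 13 were lower and 1 higher in all buds, 72.2% against 15.4% of named loci for the lower side, and the median difference was -0.81 against 0.05. Median-ratio rescaling and leaving out foregut, medial foregut or dorsal pancreas gave 14 lower, and the other rescaling and the other libraries left out gave 13. The glucose transporters had the largest gaps. Slc2a3, encoding GLUT3, stood at 337, 433, 24.5, 67.8 and 9.13, and Slc2a1, encoding GLUT1, at 251, 205, 40.2, 50.04 and 23.3. Their limma adjusted p (Benjamini-Hochberg) was 0.116 and 0.0597.

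Along the pathway, Hk2, the first enzyme, stood at 64.7, 61.5, 36.0, 26.0 and 23.6, and Pfkp, a phosphofructokinase at a row with a shared interval, at 6.99, 8.55, 2.17, 2.54 and 1.85. Pkm2, pyruvate kinase, stood at 694, 617, 331, 383 and 407, and Aldoa, aldolase, at 1034, 1089, 728, 669 and 428. For Ldha, which makes lactate, liver stood near the E8.5 libraries and dorsal pancreas far below, at 1101, 1093, 973, 783 and 324. Ldhb, the subunit that favours lactate use, was the 1 higher gene, at 20.4, 11.4, 79.5, 40.1 and 26.1. Pfkl, Pfkm, Aldoc and Pdk1 overlapped between stages. Of 20 hypoxia-induced genes 8 were lower (40% against 15.4% of named loci), glucose transporters included. On the higher side were 3 (15% against 20.6%), among them Ndrg1, at 1.31, 1.87, 52.3, 39.9 and 9.44, and Vegfa, at 32.4, 33.5, 43.1, 37.8 and 41.8.

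**Figure D4:**
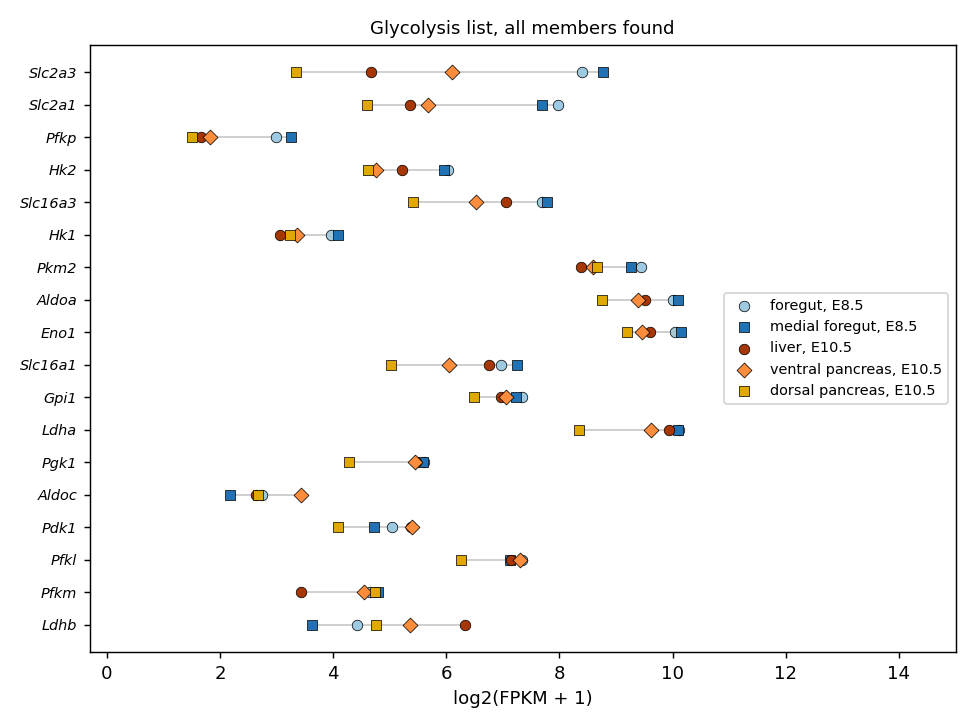
Level in each of the 5 libraries, as log2(FPKM + 1), of the 18 glycolysis genes found, sorted by the gap between stages. The blue E8.5 points lie right of all E10.5 points for the 13 genes at the top, and dorsal pancreas (yellow square) is the lowest point for Slc2a3, Slc2a1, Ldha and Pgk1 among others.

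Cell-cycle and mitosis genes were lower by small gaps. Of 25 found, 11 were lower (44% against 15.4% of named loci) and 0 higher, with a median difference of -0.22. Rescaling to equal totals gave 7 lower and 1 higher. Mybl2, a cycle transcription factor, stood at 21.3, 20.9, 10.1, 9.03 and 12.6, and Kif23, a kinesin of cytokinesis, at 50.7, 49.9, 13.0, 36.5 and 34.7. None passed limma. Of 35 cytosolic ribosome genes 1 was lower (2.86% against 15.4% of named loci) and 0 were higher, with a median difference of -0.05. Without liver 23 were lower and 1 was higher, against 2803 and 5097 of 12375 named loci. Stress and immediate-early genes, which can respond to handling of tissue, were lower for 12 of 23 (52.2% against 15.4% of named loci). Of these genes 1, Jund, was higher. Fos stood at 12.2, 11.5, 11.1, 3.51 and 3.38, and the small heat shock gene Hspb1, which is abundant in heart, at 11.8, 21.2, 2.17, 2.03 and 1.36. The part of handling in the stage differences was not tested.

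**Figure D5:**
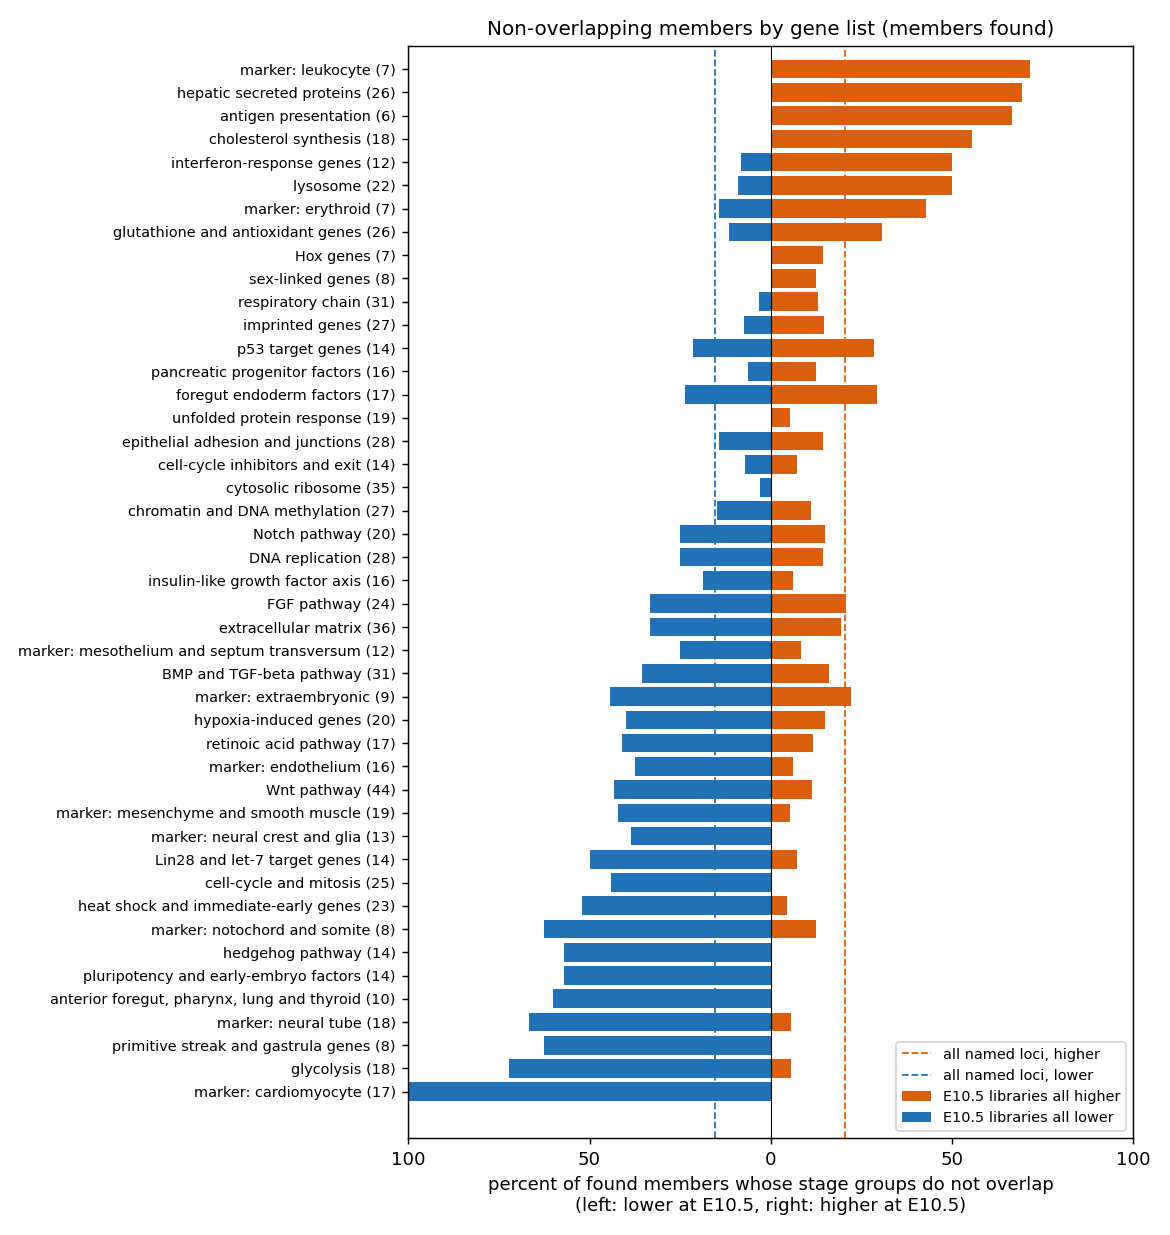
Percent of the members found in each gene list (number found in brackets) that were higher (orange, to the right) or lower (blue, to the left) in all 3 E10.5 libraries than in both E8.5 libraries. Dashed lines mark the 20.6% and 15.4% of all named loci, and the cardiomyocyte list reaches 100% on the lower side with 17 of 17.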

How the data were processed

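The authors deposited 1 table of FPKM values for 5 libraries, per the file headers. TopHat 1.33, Cufflinks 1.3.0 and the build mm9 appear in the submitters' processing notes without their roles, and the scaling between libraries was not given in the sources used here. Per the labels' protocols, cDNA came from random hexamer priming without a step that marks strand, so reads of overlapping genes cannot be told apart. Of 14053 loci, 1678 without a name were left out. Among the 12375 named loci, 731 join several names, 2597 share their interval with another, 103 lie on the other strand than the GENCODE M21 gene and 827 cover under 30% of its span. Coordinates are the table's, in mm9. FPKM hold no read counts: at low values the most common ratio of 2 libraries was shared by 2 of 51 loci, so no count was recovered.

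Stages were compared on log2(FPKM + 1) with limma 3.58.1 in R 4.3.3 (trended prior, loci at a mean of at least 1 FPKM, Benjamini-Hochberg), and the script was tested on simulated data. Samples differ by tissue, so p-values measure the spread between tissues. The fit took foregut and medial foregut as independent. By its name medial foregut is a portion of foregut, so the E8.5 spread may come out too small. Alternatives changed the pseudocount, filter, scaling, prior, loci and libraries. The genes, lists and tests were chosen with earlier results of these data known. The naming rule took the 20 called genes with the largest gaps each way, up to 4 called members per list, and Lin28a, Lin28b, H19, Igf2, Igf2bp1, Igf2bp3, Dlk1, Cdkn1c and Xist; Igf2bp1 is not analysed here. Chosen after the values were seen were the gap of 1, the limits of 0.5, the loci under 1 FPKM at one stage, the uncalled genes named as largest gaps or list members, the Nodal group, the 6 motifs, the let-7 search and the sequences shown. Some genes of the lists are not reported here.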

Additional observations from a re-analysis of the deposited data

How the results depend on the processing

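Calls by limma depended on the settings. Rises numbered 10, and 2 with a pseudocount of 0.1 FPKM, 3 with median-ratio rescaling and 25 with rescaling to a total of 1000000. Falls numbered 35, and 0 with a pseudocount of 0.1 (1664 loci at an unadjusted p under 0.05), 77 with a pseudocount of 5, 61 without a filter, 12 with a filter at 5 FPKM, 20 with median-ratio rescaling, 69 with total rescaling and 63 without a trended prior. Leaving out 1 library gave 0 to 468 rises and 0 to 288 falls, and a stage left with 1 library was assumed to vary like the other. All 10 rises and all 35 falls were called again without liver. The 2548 higher loci became 1570 at a mean of 5 FPKM, and 2937 to 5097 with 1 library left out, which can only widen the rule. The 1907 lower loci gave 2485 to 2803. The 147 higher loci with a gap of at least 1 became 232 and 56 with pseudocounts of 0.1 and 5, and 159 to 409 with 1 library left out. The 241 lower loci became 140 with a pseudocount of 5, and 272 to 361 with 1 library left out. These gap counts were recomputed as alternatives chosen after seeing the data. Of 263 named genes with non-overlapping groups, 248 kept their direction under median-ratio and 251 under total rescaling, and the rest then overlapped. No paired analysis was possible because each tissue has 1 library. Depth is unknown, so counting error cannot be given.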

Other observations

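Among the 1678 loci without a gene name, 240 were higher and 210 lower in all 3 E10.5 libraries than in both E8.5 libraries. Of the 12375 named loci, 2548 were higher and 1907 lower.

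Further lists near or apart from the background of 20.6% higher and 15.4% lower were as follows. Glutathione and antioxidant genes were higher for 8 of 26 and lower for 3, with Gstm1 at 8.76, 9.05, 133, 26.2 and 11.1 FPKM in foregut, medial foregut, liver, ventral pancreas and dorsal pancreas. Gpx3, a secreted glutathione peroxidase, was on the lower side at 189, 252, 28.3, 29.7 and 51.5 FPKM, at a row with a shared interval. Interferon-response genes were higher for 6 of 12 and lower for 1, Ifitm1, which stood at 80.4, 107, 3.77, 22.9 and 27.8 FPKM. Respiratory chain genes were higher for 4 of 31 under the deposited scaling, for 0 under median-ratio rescaling, for 10 under total rescaling and for 17 without medial foregut. Endothelial markers were lower for 6 of 16 (10 without liver) and higher for 1, Stab2, a receptor of sinusoidal endothelium, at 0.240, 0.787, 3.51, 5.80 and 2.47 FPKM.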
